A study of Mus musculus with 10 samples.

Results

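Cholesterol is built from acetyl units in a chain of enzymes, and 7 genes of that chain and its control were followed here across tumors of B16F10, a mouse melanoma line. The genes were taken by symbol as rows of the expression table, which lists 27919 genes, and all 7 were found and passed the filter on low values (a mean of at least 1 TPM, a unit that scales transcripts per length to the library's total). They are Hmgcs1, Idi1, Fdft1, Sqle, Lss and Cyp51, which encode enzymes, and Srebf2, which encodes the transcription factor SREBP2. Tumors grew from B16F10 cells that overexpressed Ly86, which encodes the secreted protein MD-1, or from cells that carried the vector. Every mouse, vector controls included, received 4 rounds of antibody to PD-1 together with antibody to CTLA4, both directed at brakes on T cells, and tumors were snap-frozen at harvest. The promoter of the construct, whether the lines were clones and the mice's age and strain are not given in the sources used here. Libraries of polyadenylated RNA numbered 10, from 4 Ly86 and 3 Vector tumors. Of these, 3 tumors (the first Ly86 tumor and the first and second Vector tumors) were sequenced as 2 pieces each, and their log2 values were averaged into 1 value per tumor, the unit of replication.

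SREBP2 is made as a precursor held in the endoplasmic reticulum by the sterol sensors SCAP and INSIG. When sterols run low it is carried to the Golgi apparatus and cut, and the released fragment turns on the genes of cholesterol synthesis and its own gene. When sterols are plentiful, oxysterols activate LXR receptors, which turn on the exporters of cholesterol. Macrophages, which take up lipid from dying cells, are known for strong LXR and export programs, and dividing tumor cells for a high demand for membrane sterol.

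The proximal promoters are shown because the members share a regulator, which binds sterol regulatory elements beside sites for NF-Y. The RefSeq promoter table (build GRCm38.p6) matched 5 of the 7 members, and Sqle and Fdft1 were not matched. The 250 bases before each start lie at chr15:82147019-82147268 for Srebf2, chr13:119690101-119690350 for Hmgcs1, chr13:8885356-8885605 for Idi1 and chr10:76531355-76531604 for Lss, all on the plus strand, and at chr5:4104698-4104947 on the minus strand for Cyp51. Each is written 5′ to 3′ on the strand of its gene. Capitals mark the NF-Y motif CCAAT or its reverse complement ATTGG, and the sterol regulatory element TCACNCCAC or its first 8 letters TCACNCCA.
Srebf2: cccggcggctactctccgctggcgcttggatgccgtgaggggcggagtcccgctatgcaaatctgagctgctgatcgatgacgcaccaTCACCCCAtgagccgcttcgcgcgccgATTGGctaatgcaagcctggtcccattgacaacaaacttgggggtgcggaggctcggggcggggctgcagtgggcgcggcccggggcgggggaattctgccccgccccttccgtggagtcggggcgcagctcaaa
Hmgcs1: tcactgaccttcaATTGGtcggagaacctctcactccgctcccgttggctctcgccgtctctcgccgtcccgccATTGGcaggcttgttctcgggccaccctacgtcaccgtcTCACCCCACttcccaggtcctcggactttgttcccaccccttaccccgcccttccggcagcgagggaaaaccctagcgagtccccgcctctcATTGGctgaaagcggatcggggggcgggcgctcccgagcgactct
Idi1: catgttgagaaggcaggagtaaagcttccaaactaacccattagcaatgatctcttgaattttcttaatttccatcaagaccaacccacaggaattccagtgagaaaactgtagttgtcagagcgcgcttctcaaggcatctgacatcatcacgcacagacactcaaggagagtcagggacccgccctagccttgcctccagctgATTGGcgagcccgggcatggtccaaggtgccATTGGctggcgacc
Lss: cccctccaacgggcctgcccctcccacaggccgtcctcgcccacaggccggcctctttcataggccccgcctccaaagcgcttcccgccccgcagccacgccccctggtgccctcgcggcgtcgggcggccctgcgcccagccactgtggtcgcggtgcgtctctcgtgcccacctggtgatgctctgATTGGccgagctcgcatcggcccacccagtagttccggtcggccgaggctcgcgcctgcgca
Cyp51: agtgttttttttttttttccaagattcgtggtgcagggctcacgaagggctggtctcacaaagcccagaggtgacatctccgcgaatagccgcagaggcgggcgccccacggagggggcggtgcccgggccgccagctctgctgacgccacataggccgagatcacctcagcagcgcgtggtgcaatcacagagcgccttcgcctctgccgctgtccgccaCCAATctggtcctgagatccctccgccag

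All 5 of these promoters held CCAAT on at least 1 strand, as did 33.8% of the 32851 promoters in the table. Hmgcs1 held 3 copies, and on its plus strand TCACNCCAC, from 137 to 129 bases before the start. That 9-letter motif was in 1.05% of all promoters, both strands counted. Srebf2 held the 8-letter form, from 162 to 155 bases before its start, which was in 3.67% of all promoters; this shorter form, which overlaps the 9-letter one, was added after the sequences had been read. All 5 held GGGCGG, the Sp1 motif, as did 32.7% of all promoters, and no member promoter held the E-box CACGTG, which was in 6.02% of them. These are matches of letters, not measured binding.

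The libraries differed widely in cells other than tumor cells. Melanocyte lineage markers summed to between 16138 and 23645 TPM in the Ly86 libraries and between 11801 and 22262 TPM in the Vector libraries, with none of the 10 genes at 0, so all libraries carried the melanoma program. The lowest of these sums, 11801 TPM, was the first piece of Vector tumor 2. That library also held the highest summed macrophage markers, 5179 TPM, against 368 TPM in the second piece of the same tumor, and it held 80.9 TPM of Ly86, within the range of 49.1 to 81.9 TPM in the Ly86 libraries. The other 4 Vector libraries held 6.24 to 30.3 TPM of Ly86. The difference in Ly86 was 1.69 log2 units (SE 0.40, exact permutation p = 0.0286 over 7 tumors, limma adjusted p = 0.437). Vector libraries with 6.24, 7.85 and 9.88 TPM of Ly86 held 369.5, 368.4 and 604.7 TPM of macrophage markers. Those with 30.3 and 80.9 TPM of Ly86 held 1573 and 5179 TPM. The part of macrophage transcripts in the Ly86 difference was not tested. Results on the members are therefore also given with the first piece of Vector tumor 2 left out.

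Srebf2 averaged 105.7 TPM over the 7 tumors, a level per length, Hmgcs1 103.4, Sqle 98.0, Cyp51 80.0, Idi1 79.2, Fdft1 42.4 and Lss 28.9. Neighbours at the top did not separate beyond their spread. Srebf2 exceeded Hmgcs1 in 3 of 7 tumors, and Cyp51 exceeded Idi1 in 3 of 7. Sqle lay above Cyp51, Idi1 above Fdft1 and Fdft1 above Lss in all 7 tumors. Lss, which closes squalene epoxide into the first sterol ring system, was thus the lowest member in every tumor.

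Srebf2 separated the groups. It was at 113.9 and 92.0 TPM in the pieces of Ly86 tumor 1 and at 90.0, 83.0 and 83.1 TPM in Ly86 tumors 2, 3 and 4. In the Vector group it was at 123.7 and 147.0 TPM in the pieces of tumor 1, at 80.8 and 152.4 TPM in those of tumor 2 and at 128.9 TPM in tumor 3. Averaged by tumor, every Ly86 tumor lay below every Vector tumor, although the first piece of Vector tumor 2 was the lowest library of all. The means were 6.50 ± 0.14 log2(TPM + 1) in Ly86 tumors (SD, n = 4) and 6.97 ± 0.15 in Vector tumors (SD, n = 3). The difference was -0.48 log2 units (SE 0.11, 95% interval -0.74 to -0.21). The two-sided exact permutation p was 0.0286, the smallest that 35 assignments of the tumors allow, while limma's p adjusted over 14556 genes was 0.437 and did not pass the threshold of 0.05.

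None of the 7 members passed that threshold, nor did any gene tested, so the share called by limma was 0%. At an unadjusted limma p under 0.05 there were 1565 genes, 10.8% of those tested, with 724 of them on the lower side (4.97%), and Srebf2 was the 1 member among them. Groups did not overlap, with Ly86 lower, for 837 genes, 5.75% of those tested, and again for Srebf2 alone of the members. All 7 members had a difference below 0, as did 56.2% of all genes tested. The median was -0.30 log2 units for the members and -0.037 for all genes tested.

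Of the mevalonate enzymes, Hmgcs1 and Idi1 differed least. Hmgcs1 encodes the cytosolic synthase that makes HMG-CoA, an early intermediate of the mevalonate chain. It was at 113.0 and 102.0 TPM in the pieces of Ly86 tumor 1 and at 92.5, 110.1 and 90.2 TPM in Ly86 tumors 2, 3 and 4. In Vector tumors it was at 129.0 and 137.2 TPM in the pieces of tumor 1, 49.1 and 102.5 TPM in those of tumor 2 and 114.7 TPM in tumor 3. The groups overlapped through Vector tumor 2, whose first piece was at less than any Ly86 library. The difference was -0.044 log2 units (SE 0.21, 95% interval -0.52 to 0.43, limma adjusted p = 0.963, exact permutation p = 0.914). Its direction turned with the setting, to 0.018 under quantile normalization and to 0.141 without Vector tumor 1.

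Idi1 encodes the isomerase that makes dimethylallyl diphosphate, a building block of all isoprenoids. It was at 84.7 and 67.2 TPM in the pieces of Ly86 tumor 1 and at 70.1, 85.2 and 70.0 TPM in the other Ly86 tumors. Vector tumor 1 held 97.8 and 101.1 TPM, Vector tumor 2 held 37.8 and 88.9 TPM and Vector tumor 3 held 90.1 TPM. Apart from that first piece of Vector tumor 2, every Vector library was above every Ly86 library. The difference was -0.10 log2 units (SE 0.18, 95% interval -0.52 to 0.32, limma adjusted p = 0.889), and 0.050 without Vector tumor 1.

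Fdft1 and Sqle stand at the entry to the sterol branch. Fdft1 encodes squalene synthase, which joins farnesyl units into squalene. It was at 43.6 and 40.2 TPM in the pieces of Ly86 tumor 1 and at 33.9, 46.0 and 32.7 TPM in Ly86 tumors 2, 3 and 4, against 56.6 and 45.4, 27.8 and 53.5, and 50.6 TPM in Vector tumors 1, 2 and 3. The groups overlapped, with Ly86 tumors 1 and 3 above Vector tumor 2 on the log2 scale, and the difference was -0.27 log2 units (SE 0.16, limma adjusted p = 0.573).

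Sqle encodes squalene epoxidase, an oxygen-requiring step whose enzyme is degraded when cholesterol accumulates. It was at 114.1 and 85.6 TPM in the pieces of Ly86 tumor 1 and at 83.2, 96.1 and 73.5 TPM in Ly86 tumors 2, 3 and 4. It was at 123.3 and 124.7 TPM in Vector tumor 1, 60.3 and 129.8 TPM in Vector tumor 2 and 114.2 TPM in Vector tumor 3. Vector tumor 2 averaged 6.48 log2(TPM + 1), between Ly86 tumor 3 at 6.60 and Ly86 tumor 2 at 6.39. The difference was -0.30 log2 units (SE 0.15, 95% interval -0.65 to 0.050, limma adjusted p = 0.511, exact permutation p = 0.171).

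Lss and Cyp51 make and then trim the sterol rings. Lss encodes lanosterol synthase. It was at 28.3 and 29.7 TPM in the pieces of Ly86 tumor 1 and at 30.8, 19.5 and 18.2 TPM in Ly86 tumors 2, 3 and 4, against 32.3 and 42.7, 15.7 and 42.1, and 38.3 TPM in Vector tumors 1, 2 and 3. Ly86 tumors 3 and 4 were low and Ly86 tumors 1 and 2 lay above Vector tumor 2, so the Ly86 group itself was split. The difference was -0.47 log2 units (SE 0.23, 95% interval -1.0 to 0.060, limma adjusted p = 0.498).

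Cyp51 encodes the demethylase that acts on lanosterol. It was at 88.5 and 62.9 TPM in the pieces of Ly86 tumor 1 and at 69.8, 81.1 and 58.1 TPM in Ly86 tumors 2, 3 and 4. Vector tumor 1 held 105.3 and 114.5 TPM, Vector tumor 2 held 38.6 and 92.7 TPM and Vector tumor 3 held 99.8 TPM. Vector tumor 2 again fell among the Ly86 tumors, and the difference was -0.30 log2 units (SE 0.21, 95% interval -0.79 to 0.19, limma adjusted p = 0.636).

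**Figure D1:**
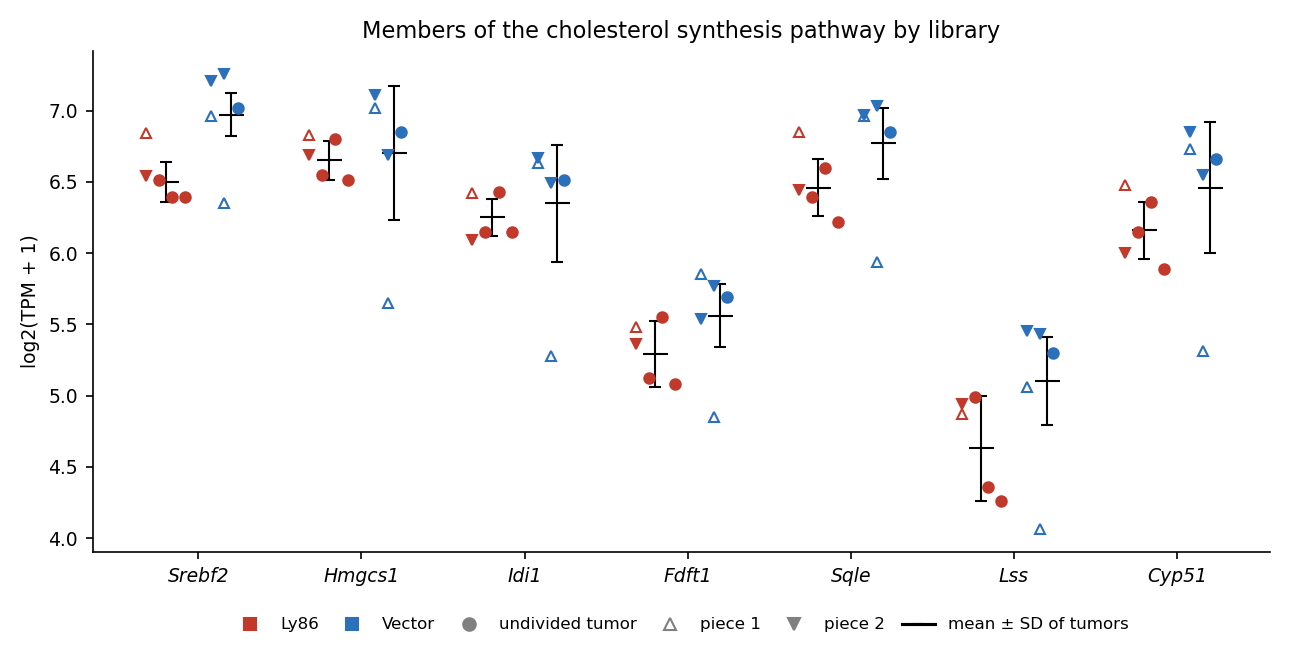
Level of each member in log2(TPM + 1) by library; red is Ly86 and blue is Vector, circles are undivided tumors, open and filled triangles are first and second pieces, and bars give the mean and SD of 4 Ly86 and 3 Vector tumors. One Vector library, piece 1 of tumor 2, is the lowest point for all 7 members, whereas the other 4 Vector libraries sit at or above most Ly86 libraries.

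The first piece of Vector tumor 2 was the lowest of the 10 libraries for all 7 members, and it was the lowest for 19.8% of all genes tested. Against the second piece of the same tumor, the members were lower by 0.91 log2 units (Srebf2) to 1.36 (Lss), with a median difference of -1.09, while the median over all genes was -0.01. Only 3.1% of genes tested differed between these pieces by more than the least of the 7 members in that direction. In Ly86 tumor 1 the first piece differed from the second by -0.07 (Lss) to 0.49 (Cyp51), and in Vector tumor 1 by -0.39 (Lss) to 0.31 (Fdft1). The difference between pieces of Vector tumor 2 was thus larger, for each member, than the difference between the group means.

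With that first piece left out, the members ordered the groups more sharply, yet none passed. As it was the lowest library for all 7 members, leaving it out had to make each difference more negative. The sharper order is therefore a description and no added support. Every Ly86 tumor then lay below every Vector tumor for 6 of the 7 members, Hmgcs1 being the exception, where 10.4% of all genes tested did so. The differences were -0.63 (SE 0.11) for Srebf2, -0.70 (SE 0.20) for Lss, -0.51 (SE 0.13) for Cyp51, -0.48 (SE 0.12) for Sqle, -0.42 (SE 0.13) for Fdft1, -0.30 (SE 0.10) for Idi1 and -0.22 (SE 0.12) for Hmgcs1. Limma's adjusted p in that fit was between 0.0875 and 0.357, and 1 of 14556 genes (0.00687%), no member, was called. With limma's array weights, which gave Vector tumor 3 a weight of 22.9 and every other tumor less than 1, Srebf2, Cyp51, Fdft1, Sqle and Lss passed, with adjusted p of 0.0217 to 0.0378, in a fit that called 12.6% of all genes, 8.29% on the lower side.

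Macrophage and monocyte markers tended to be low in the libraries where the members were high. Pieces of the same tumor are given here as separate libraries and are not replicates. The 7 members together summed to 586, 480, 470, 521 and 426 TPM in the 5 Ly86 libraries (pieces 1 and 2 of tumor 1, then tumors 2, 3 and 4), where 12 macrophage and monocyte markers summed to 1811, 3678, 2542, 2140 and 2639 TPM. In Vector tumor 1 the members summed to 668 and 713 TPM and the macrophage markers to 369.5 and 604.7 TPM. In Vector tumor 2 the members summed to 310 TPM in the first piece and 662 TPM in the second, where macrophage markers stood at 5179 and 368 TPM. In Vector tumor 3 the sums were 637 and 1573 TPM. The 4 libraries with the fewest macrophage transcripts were the 4 with the most transcripts of the members. The library with the most macrophage transcripts had the fewest of the members. This was not particular to macrophages. In the same 4 libraries fibroblast markers also had their lowest sums, 120 to 795 TPM, as did T cell markers, 5.94 to 39.5 TPM. Both sums were highest in the first piece of Vector tumor 2, at 4882 and 151 TPM.

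All 12 macrophage markers were higher in Ly86 tumors, as were all 10 fibroblast and all 10 T cell markers, and no marker of these lists was at 0 in any library. Fibroblast markers summed to 983 to 2756 TPM in Ly86 libraries and 120 to 4882 TPM in Vector libraries, and T cell markers to 46.2 to 101 TPM in Ly86 libraries and 5.94 to 151 TPM in Vector libraries. All 12 cell cycle markers were on the lower side in Ly86 tumors, with sums of 1579 to 2075 TPM in Ly86 libraries and 1622 to 2590 TPM in Vector libraries. Keratinocyte markers, 8 of 10 at 0 in some library, summed to 3.67 to 3066 TPM in Ly86 libraries and 3.38 to 772 TPM in Vector libraries, and all 10 were on the lower side by tumor means. Adipocyte markers, 6 of 10 at 0 in some library, summed to 87.0 to 289 TPM in Ly86 libraries and 16.2 to 829 TPM in Vector libraries. The part of these cell types in the differences of the members was not tested. In bulk tumor RNA, fewer cells that express a gene and less RNA per cell cannot be told apart.

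**Figure D2:**
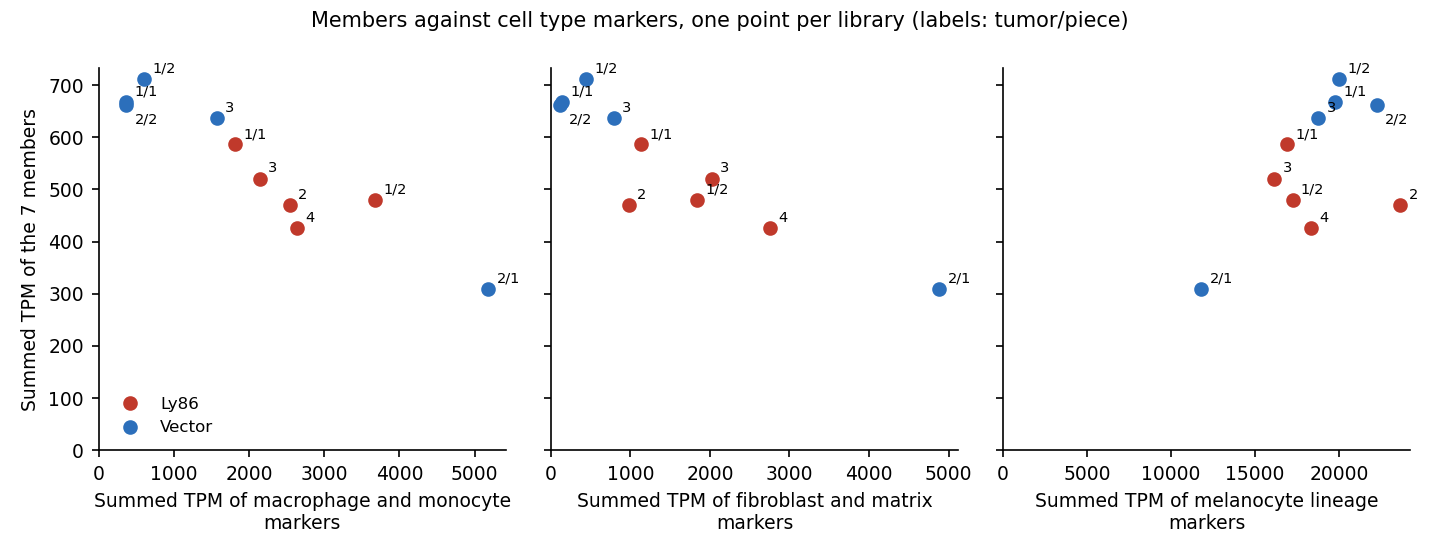
Summed TPM of the 7 members (vertical axis) against summed TPM of macrophage, fibroblast and melanocyte lineage markers (horizontal axes), with 1 point per library, red for Ly86 and blue for Vector, labelled by tumor and piece. The first piece of Vector tumor 2 (2/1) has the lowest sum of members, 310 TPM, and the highest macrophage and fibroblast sums, 5179 and 4882 TPM, and it has the lowest melanocyte sum, 11801 TPM.

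Members followed one another across tumors to different degrees. Over the 7 tumors, Pearson's r among the 21 pairs of members had a median of 0.75 and ran from 0.38 (Hmgcs1 and Srebf2) to 0.98 (Hmgcs1 and Idi1). Sqle and Fdft1 had an r of 0.95, and Lss and Srebf2 0.85. Srebf2 and Lss were less like Hmgcs1 and Idi1, with r of 0.38 to 0.45. The tumors share cell composition and processing, so these are descriptions with no p. Vector tumors 1 and 3, the highest for the members together, set much of the likeness: without them r was 0.96 for Hmgcs1 and Idi1 but -0.55 for Hmgcs1 and Srebf2.

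Among 12940 other genes, the one most like the mean of the 7 members over the 7 tumors was another enzyme of the same pathway. Nsdhl, which encodes the dehydrogenase that removes methyl groups after CYP51, had a Pearson r of 0.993, and of 0.965 without the 2 tumors farthest from the median. It was at 44.6 and 36.6 TPM in the pieces of Ly86 tumor 1 and 38.1, 38.7 and 34.0 TPM in Ly86 tumors 2, 3 and 4, and at 50.0 and 47.8, 24.9 and 52.8, and 46.1 TPM in Vector tumors 1, 2 and 3. Next came Znrd2 (r = 0.983), Cby1 (0.981), Fbxl7 (0.981) and Nol12 (0.979), and Fdps, farnesyl diphosphate synthase, named after its value was seen, ranked sixth with 0.978. With 7 tumors and this many genes high values arise readily, so the ranking is a description.

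The rest of the synthesis pathway leaned the same way, again without a call. Of 16 other enzymes tested, all 16 had a difference below 0, with a median of -0.25 log2 units, and 0 passed. Leaving out Vector tumor 2 moved that median to -0.39, and dropping just piece 1 of it to -0.38, but it was -0.04 when divided tumors were represented by their first pieces, with 11 genes below 0 and 5 above. Lbr, a sterol reductase that also anchors chromatin to the nuclear lamina, differed by -0.31 (SE 0.12) and Dhcr7, the last reductase of the pathway, by -0.37 (SE 0.15), with limma adjusted p of 0.449 and 0.454. Ebp, a sterol isomerase named after its value was seen, differed by -0.020 (SE 0.10).

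**Figure D3:**
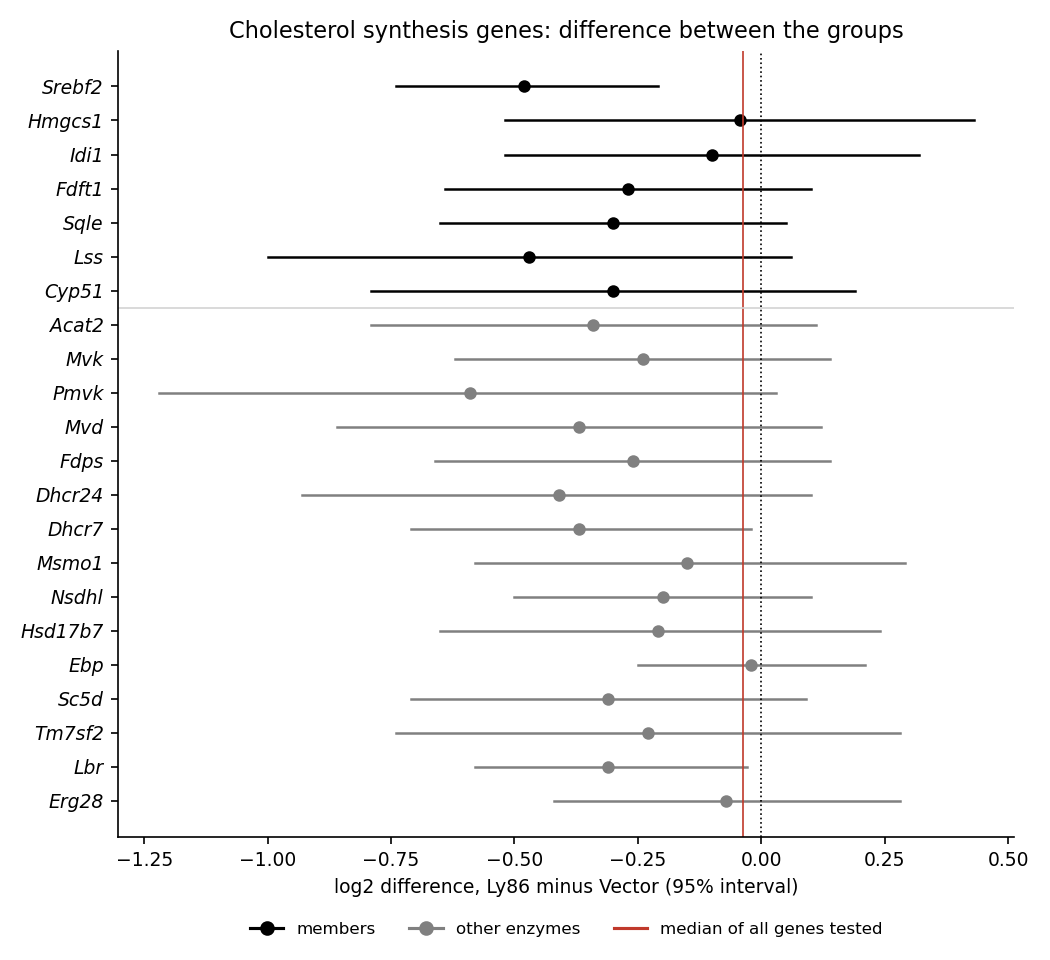
Difference in log2(TPM + 1) between Ly86 and Vector tumors, Ly86 minus Vector, with limma's 95% interval, for the 7 members (black) and 15 of the 16 other enzymes of cholesterol synthesis (gray), 1 being not reported here; the red line is the median of all genes tested, -0.037. All 22 points lie below 0, and of the members only Srebf2 has an interval that stays below 0.

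The genes that sense sterols and process SREBP proteins mostly leaned lower, again without a call. Of 11 tested, 9 had a difference below 0 and 2 above, with a median of -0.10 and 0 passing. The median was -0.21 without Vector tumor 2 and -0.03 without Ly86 tumor 3. At an unadjusted limma p under 0.05, 4 of the 11 were on the lower side, as were 4.97% of all genes tested. Groups did not overlap, with Ly86 lower, for 3 of the 11 and for 5.75% of all genes. Insig1, the sterol-regulated anchor of SREBP in the endoplasmic reticulum and itself an SREBP target, was at 144.8 and 101.6 TPM in the pieces of Ly86 tumor 1 and 140.6, 125.2 and 83.2 TPM in Ly86 tumors 2, 3 and 4. It was at 168.9 and 194.1, 78.2 and 242.4, and 176.6 TPM in Vector tumors 1, 2 and 3, a difference of -0.50 (SE 0.19, limma adjusted p = 0.443). Srebf1, which encodes SREBP1, the family member that favours fatty acid genes, differed by -0.38 (SE 0.092) and the escort gene Scap by -0.48 (SE 0.17). In both, every Ly86 tumor lay below every Vector tumor, an order that 5.75% of all genes tested had. Limma adjusted p was 0.437 for Srebf1 and 0.441 for Scap. Single libraries overlapped. The first piece of Ly86 tumor 1 held 81.9 TPM of Srebf1, where Vector libraries held 77.5 to 109.3 TPM. It held 85.4 TPM of Scap, where Vector libraries held 60.2 to 87.1 TPM. Insig2, the gene of the other INSIG protein, named after its value was seen, differed by 0.16 (SE 0.19).

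Genes of cholesterol uptake and transport had no common direction. Of 16 uptake and transport genes, 7 had a difference below 0 and 9 above, with a median of 0.0075 and 0 passing. At an unadjusted limma p under 0.05, 4 were on the lower and 4 on the higher side, against 4.97% and 5.78% of all genes tested. Groups did not overlap for 3 with Ly86 lower and 4 with Ly86 higher, against 5.75% and 4.71% of all genes. Stard4, a carrier of cholesterol between membranes, differed by -0.45 (SE 0.11, exact permutation p = 0.0286, limma adjusted p = 0.437). It was picked from its list for its small unadjusted p, so its exact p is a description and no added support. Every Ly86 tumor lay below every Vector tumor, an order that 5.75% of all genes tested had. Single libraries overlapped, with 29.5 TPM in the first piece of Ly86 tumor 1 and 21.0 to 46.4 TPM in Vector libraries. On the other side stood Lrp1, a large receptor of lipoproteins and cell debris, at 1.00 (SE 0.39). Mylip, an LXR-induced ubiquitin ligase, stood there too, at 0.66 (SE 0.20). Both were named after their values were seen. Lrp1 was at 232.4 TPM in the first piece of Vector tumor 2, its highest library, and 21.8 TPM in the second. Ly86 libraries held 73.8 to 123.3 TPM of it.

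Export and oxysterol genes ran opposite to the members in direction, and 0 passed. Of 12 tested, 11 had a difference above 0, with a median of 0.96 log2 units, and of 0.57 without Vector tumor 1. The 12 macrophage and monocyte markers moved with them, all 12 on the higher side with a median of 1.27. So did all 10 fibroblast and all 10 T cell markers, with medians of 1.46 and 1.18. The part of these cell types in this difference was not tested. At an unadjusted limma p under 0.05, 8 of the 12 export and oxysterol genes were on the higher side, as were 5.78% of all genes tested. Groups did not overlap, with Ly86 higher, for 3 of these 12 and for 4.71% of all genes. Ch25h, which makes the oxysterol that blocks SREBP processing, was at 21.6 and 20.7 TPM in the pieces of Ly86 tumor 1 and at 11.7, 12.2 and 15.4 TPM in Ly86 tumors 2, 3 and 4. It was at 2.92 and 1.65, 5.59 and 0.93, and 9.55 TPM in Vector tumors 1, 2 and 3. Every Ly86 library was above every Vector library, the first piece of Vector tumor 2 included. The difference was 1.66 (SE 0.42, exact permutation p = 0.0286, limma adjusted p = 0.437). Ch25h was also picked for its small unadjusted p, so its exact p is a description. Pltp, a lipoprotein lipid transfer gene, differed by 1.70 (SE 0.46, limma adjusted p = 0.437). It was at 188.2 TPM in the first piece of Vector tumor 2, the highest of the 10 libraries, and at 8.35 TPM in the second. That first piece also had the highest macrophage, fibroblast, T cell and adipocyte marker sums.

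The LXR genes were chosen after their values were seen. The exporter gene Abca1 differed by 0.88 (SE 0.32), the exporter gene Abcg1 by 1.11 (SE 0.45) and Nr1h3, which encodes LXR alpha, by 1.19 (SE 0.49), with limma adjusted p of 0.441 to 0.455. Abca1 was at 32.6 TPM in that same first piece, also its highest library, and 4.26 TPM in the second, opposite in order to all 7 members. Apoe, the lipoprotein gene, differed by 0.12 (SE 0.28) and Nr1h2, which encodes LXR beta, by -0.062 (SE 0.19). The median of the list was 0.42 when divided tumors were represented by their first pieces and 1.49 when represented by their second.

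Fatty acid genes, the SREBP1 arm, also leaned lower. Of 13 tested, 10 had a difference below 0, with a median of -0.34 and 0 passing. At an unadjusted limma p under 0.05, 6 of the 13 were on the lower side, as were 4.97% of all genes tested. Groups did not overlap, with Ly86 lower, for 3 of the 13 and for 5.75% of all genes. The median was -0.54 without Vector tumor 2, -0.57 with only second pieces and -0.06 with only first pieces. Scd1, a desaturase, differed by -0.78 (SE 0.17) and Elovl6, an elongase, by -0.68 (SE 0.21), with limma adjusted p of 0.437 for both. The pieces of Ly86 tumor 1 were apart, at 104.8 and 50.9 TPM of Scd1 and 41.7 and 12.2 TPM of Elovl6. For Elovl6 that first piece was the highest of the 10 libraries. The isoprenoid branch, which draws on the same mevalonate but is not known as a main SREBP2 target, had a smaller median, -0.078 over 11 genes with 10 below 0, and -0.12 without Ly86 tumor 2. Pdss1, for the side chain of coenzyme Q, differed by -0.23 (SE 0.13) and Coq2 by -0.13 (SE 0.10), with limma adjusted p of 0.542 and 0.656.

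**Figure D4:**
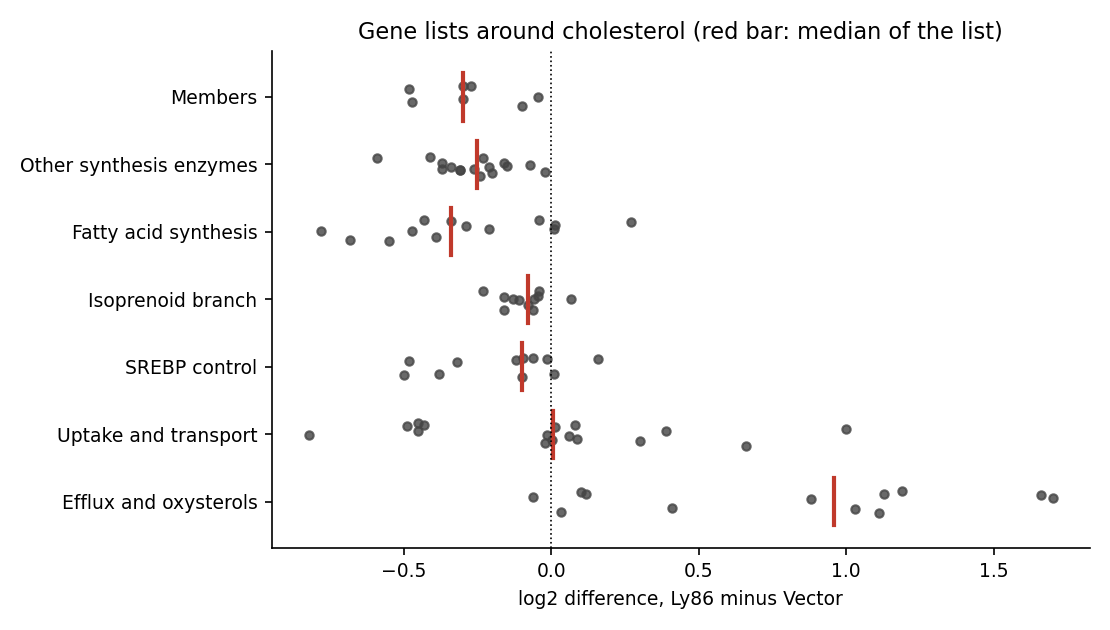
Difference in log2(TPM + 1), Ly86 minus Vector, for each tested gene (points) of 7 lists around cholesterol, with the median of the list as a red bar. Medians lie at -0.30 for the members, -0.25 for other synthesis enzymes and -0.34 for fatty acid genes, and at 0.96 for export and oxysterol genes.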

How the data were processed

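The authors' deposited table holds log2(TPM + 1) values per gene symbol and library. That scale was read from the values: taking 2 to the power of a value and subtracting 1 gave multiples of 0.01 in 99.9% of cases (tolerance 0.0001 hundredths), with library totals of 994679 to 996446. Per the submitters' processing notes, STAR 2.7.10b, RSEM 1.3.3 and the build mm39 were used; the annotation and the merging of repeated symbols are not given in the sources used here. Read depth is unknown, since TPM does not hold it; 19304 to 21882 genes were above 0 per library.

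Log2 values of pieces were averaged by tumor. The 14556 genes with a mean of at least 1 TPM entered limma 3.58.1 in R 4.3.3 (eBayes with trend, Benjamini-Hochberg, threshold 0.05), checked on simulated data; differences are Ly86 minus Vector on the log2(TPM + 1) scale. Exact permutation tests were two-sided over 35 assignments. The labels do not say that each tumor came from a separate mouse, so the tests reflect how these particular tumors vary, which may be technical in part. The members and lists were chosen with earlier results of these data known. Genes named were the members, Ly86, Insig1, the 2 genes of each list with the smallest unadjusted p, and the 5 genes most like the members, and a few named after their values were seen, as said beside each; some genes this rule names are not reported here, though the counts and medians of lists include them. Alternatives were other pseudocounts (0.1, 0.5) and filters (none, or a mean of at least 5 TPM), 2 scalings, the 10 libraries fitted with tumor as a random block, single pieces, pieces averaged as TPM, eBayes without trend, array weights, the tumor number as block, and each tumor left out. Promoters came from RefSeq GRCm38.p6, a build other than that of the table, and were matched by symbol. Figures used matplotlib 3.10.9 in Python 3.11.15.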

Additional observations from a re-analysis of the deposited data

How the results depend on the processing

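Srebf2, Sqle, Fdft1, Lss and Cyp51 had a difference below 0 in all 21 alternatives, with Srebf2 between -0.71 and -0.25 and the median of the 7 members between -0.54 and -0.066; with each tumor left out in turn that median ran from -0.44 to -0.20. Over the alternatives the median ran from -0.42 to -0.043 for other synthesis enzymes, -0.566 to -0.058 for fatty acid genes, -0.15 to -0.045 for the isoprenoid branch, -0.207 to -0.031 for SREBP control, -0.083 to 0.111 for uptake and transport and 0.424 to 1.489 for export and oxysterol genes. Members called numbered 0 in all alternatives except array weights, which called 5, and genes of the other lists 0 except 26 with array weights and 1 with only the second pieces. Over all genes, 1 was called with only the first pieces, 6 with only the second, 1 without the first piece of Vector tumor 2, 1832 with array weights, and 0 to 2 with each tumor left out; genes at an unadjusted p under 0.05 numbered 1565 in the reported fit, 318 with only first pieces, 3319 with only second pieces, 3012 without the first piece of Vector tumor 2, 4887 with array weights and 645 with the tumor number as block. Hmgcs1 turned to 0.018 under quantile normalization, 0.164 with only first pieces, 0.004 with the tumor number as block, and between -0.31 and 0.14 with each tumor left out (above 0 without Ly86 tumor 4, at 0.004, without Vector tumor 1, at 0.141, and without Vector tumor 3, at 0.035). Idi1 turned to 0.151 with only first pieces, and Idi1 ran from -0.333 to 0.050 with each tumor left out (0.050 without Vector tumor 1). The causes were not tested. Deviations of same-numbered Ly86 and Vector tumors from their group means correlated at -0.17, -0.11 and -0.31, and no tumor was most like the one of its own number. These values cannot tell whether a shared number marks a pair, since other differences between tumors enter them too. The replicate block, which leaves Ly86 tumor 4 without weight, gave 0 called genes, 0 called members and a members' median of -0.21. Depth is unknown, so counting error could not be given. With 4 against 3 tumors, differences of the size seen here can stay uncalled.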
